A study of Mus musculus with 12 samples.

Results

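The suppressor of cytokine signalling (SOCS) family comprises 8 genes in the mouse, Socs1, Socs2, Socs3, Socs4, Socs5, Socs6, Socs7 and Cish, and their reads were followed through 12 RNA-seq libraries. The members were chosen by gene symbol, and each symbol stood on a single row, so the family made up 8 of the 55335 genes in the table of read counts. Libraries came from bone-marrow-derived macrophages (BMDMs) and from livers, with 3 libraries for each of 4 groups. The study asked how loss of the thyrotropin (TSH) receptor gene Tshr in myeloid cells alters macrophages and the insulin response of the liver.

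All mice were males carrying the floxed allele of Tshr on both chromosomes. The control group, Tshr f/f, had no Cre, and the Tshr MKO group was Tshr f/f with Lyz2-Cre, a recombinase driven by the lysozyme 2 promoter, which is active in macrophages, monocytes and granulocytes and not in hepatocytes. BMDMs of both genotypes came from animals of 6 weeks by the labels (the study's methods for BMDMs give 6 to 8 weeks), were differentiated over 7 days with M-CSF at 10 ng/mL and received TSH at 1 ng/mL for 24 h, so that no group without TSH was compared. Livers of both genotypes came from mice that entered a high-fat diet at 6 weeks of age, stayed on it for 9 weeks, were fasted for 8 h and received insulin at 1.5 U/kg, 5 min before collection. The study's methods give 3 littermates per group, and the labels do not tie libraries to animals or litters.

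SOCS proteins close a feedback loop on cytokine receptors. A cytokine or growth hormone activates receptor-bound Janus kinases (JAKs), these phosphorylate STAT transcription factors, and the STATs switch on SOCS genes whose products bind the receptor or kinase through an SH2 domain and recruit a ubiquitin ligase through the SOCS box. SOCS1 and SOCS3 also block kinase activity directly and restrain interferon and interleukin-6 (IL-6) type signals, respectively, CIS (the product of Cish) and SOCS2 act on receptors that signal through STAT5, such as that of growth hormone, and the remaining members are linked mainly to receptor tyrosine kinases. In liver and fat, SOCS1 and SOCS3 are also known to bind the insulin receptor or its substrates.

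The libraries held 28962878 to 40954211 counts. Reads of Tshr were almost absent (at most 2 counts in a Tshr f/f BMDM library, 5 in a Tshr MKO BMDM library and 0 in livers), so that the deletion could not be checked from these reads. Levels are given as CPM, the counts of a gene relative to the size of its library, after scaling by trimmed mean of M-values (TMM) within BMDMs or within livers, and 3 counts correspond to 0.0733 to 0.104 CPM of a library's total. Tshr f/f BMDM replicate 3 stood apart with a TMM factor of 0.738, against 0.993 to 1.11 in the other BMDM libraries. Tshr MKO BMDM replicates 1 and 2 were the most alike pair within a group. Their counts differed by a chi-square of 12.3 per gene, against 41 to 521 for the other pairs, and the labels do not say why. The liver groups are named by their labels throughout, because a supplementary table of the study lists these liver libraries under the opposite headings. Each liver direction given here is that of the labels. Hepatocyte markers (Alb, Apoa1, Ttr, Cyp2e1, Serpina1a, Cps1 and Tat) were at no more than 3 counts in each BMDM library, and their summed level was 78700 to 104000 CPM in livers. The 7 macrophage markers, Adgre1 and Csf1r among them, summed to 14800 to 29300 CPM in BMDMs, where Col1a1 and 5 other stromal markers also summed to 776 to 2770 CPM.

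Socs1 and Socs3, which STATs are known to induce, are shown here by their promoters, because they are the 2 members lower by the unadjusted rule in BMDMs given below and RefSeq windows for them were at hand. The sequences are the 250 bases before the RefSeq start (build GRCm38.p6) on the strand of the gene, 5′ to 3′, chr16:10785537-10785786 (minus strand) for Socs1 and chr11:117969367-117969616 (minus strand) for Socs3. The Socs3 window lies within the GENCODE span of the gene given below, which reaches 117970047, so it is not upstream of the whole annotated gene. Capitals mark matches, on either strand, to a STAT motif (TTCNNNGAA), an EGR motif (GCGNGGGCG) or an AP-1 motif (TGANTCA).
Socs1: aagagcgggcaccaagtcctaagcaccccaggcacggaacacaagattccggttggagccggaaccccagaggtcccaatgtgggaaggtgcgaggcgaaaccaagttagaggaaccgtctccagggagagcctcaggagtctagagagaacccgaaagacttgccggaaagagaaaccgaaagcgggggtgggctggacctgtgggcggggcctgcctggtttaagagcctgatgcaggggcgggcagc
Socs3: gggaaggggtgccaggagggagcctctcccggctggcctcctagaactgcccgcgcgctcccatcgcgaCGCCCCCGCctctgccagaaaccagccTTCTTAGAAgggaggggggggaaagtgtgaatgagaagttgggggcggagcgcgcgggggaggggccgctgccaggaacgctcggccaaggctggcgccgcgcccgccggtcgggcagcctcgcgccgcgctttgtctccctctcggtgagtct
The Socs3 window held 1 STAT match, TTCTTAGAA, 154 to 146 bases before the start, and 1 EGR match on the opposite strand, CGCCCCCGC, 181 to 173 bases before it, and these did not overlap. The Socs4 window, not printed here, held 1 EGR match, GCGGGGGCG, 148 to 140 bases before the start. No match to any of the 3 motifs lay in the windows of Socs1 or Cish, which says only that these letters are not in those 250 bases. The Cish window, chr9:107296409-107296658 (plus strand), also lies within the GENCODE span of its gene, which starts at 107296026. It is thus not upstream of the whole annotated gene, and the bases before that start were not searched. Among 32851 windows of the same length, 7.02% held the STAT motif, 4.7% the EGR motif and 6.75% the AP-1 motif. RefSeq windows were at hand for 4 of the 8 members, Socs1, Socs3, Socs4 and Cish.

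In BMDMs the family split. Socs3, Socs1 and Cish were lower on average in Tshr MKO than in Tshr f/f, Socs6 was higher, and the group means of Socs4, Socs5 and Socs7 differed by at most 1.21-fold. The mean of Socs2 was 1.32-fold higher in Tshr MKO, with overlapping groups. All 8 members passed the filter on low counts. No member passed an adjusted p under 0.05 in edgeR's quasi-likelihood test over 15372 genes, where 0.0% of all genes did; DESeq2 called 2 members lower (Socs1 and Socs3), against 4.53% of all genes, and 1 higher (Socs6), against 3.38%. Limma voom with sample quality weights called 3 lower (the same and Cish), against 5.59%, and Socs6 higher, against 3.71%. By the rule of an unadjusted p under 0.05 and at least 2-fold, 2 members were lower (Socs1 and Socs3), against 5.52% of all genes, and 1 was higher (Socs6), against 3.3%. The groups did not overlap for 1 member lower in Tshr MKO (Socs3), where 14.0% of all genes were so placed, and for 1 higher (Socs6), where 14.8% were. The median log2 fold change of the 8 members was -0.10, with 5 fitted lower and 3 higher, against 0.01 over all genes. RNA from a whole culture or organ cannot tell fewer expressing cells from less RNA per cell.

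Socs3 (ENSMUSG00000053113, chr11:117966079-117970047, minus strand, GRCm38), the inhibitor of IL-6 type receptors, had 205, 109 and 1240 CPM in the Tshr f/f cultures, compared with 38.3, 34.3 and 95.2 CPM in the Tshr MKO cultures. Every Tshr f/f library lay above every Tshr MKO library, the nearest pair being 109 and 95.2 CPM, and Tshr f/f replicate 3 was far above the others of its group. The means were 518 ± 627 and 55.9 ± 34.1 CPM (SD, n = 3 per group), a 9.26-fold difference. The log2 fold change was -3.21 (SE 1.01, edgeR unadjusted p = 0.0179, adjusted p = 0.230), and without Tshr f/f replicate 3 it was -1.5 (SE 0.52, unadjusted p = 0.0325, adjusted p = 0.278). Without Tshr MKO replicate 1 or 2 the unadjusted p rose to 0.0594 and 0.0605.

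Socs1 (ENSMUSG00000038037, chr16:10782240-10785536, minus strand), which binds JAKs and damps interferon signals, had 14.7, 3.78 and 30.7 CPM in the Tshr f/f cultures, compared with 1.93, 2.45 and 4.12 CPM in the Tshr MKO cultures. Tshr f/f replicate 3 was again the highest, and the groups overlapped, since Tshr f/f replicate 2 lay below Tshr MKO replicate 3. Its mean was 16.4 ± 13.5 CPM in Tshr f/f and 2.83 ± 1.14 CPM in Tshr MKO (SD, n = 3). The log2 fold change was -2.53 (SE 0.75, edgeR unadjusted p = 0.0138, adjusted p = 0.223), and -1.71 without Tshr f/f replicate 3 (adjusted p = 0.297).

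Cish (ENSMUSG00000032578, chr9:107296026-107302784, plus strand), a classical STAT5 target, had 11.1, 11.2 and 30.5 CPM in the Tshr f/f cultures, compared with 2.51, 2.43 and 12.4 CPM in the Tshr MKO cultures. Tshr MKO replicate 3 lay above 2 of the 3 Tshr f/f libraries, so the groups overlapped. The means were 17.6 ± 11.2 and 5.78 ± 5.74 CPM (SD, n = 3). The log2 fold change of -1.60 (SE 0.78) did not pass either rule (edgeR unadjusted p = 0.0821, adjusted p = 0.325). It was -2.83 (unadjusted p = 0.00405) without Tshr MKO replicate 3 and -0.96 (unadjusted p = 0.260) without Tshr f/f replicate 3, so that single libraries decided its size. Reads of an antisense gene and a pseudogene that overlap Cish could be counted with it if strand was not used in counting, which the sources used here do not state.

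Socs6 (ENSMUSG00000056153, chromosome 18, minus strand), known for binding the insulin receptor, its substrates and the receptor tyrosine kinase KIT, went the other way. It had 32.9, 22.0 and 28.9 CPM in the Tshr f/f cultures, compared with 69.5, 61.1 and 68.4 CPM in the Tshr MKO cultures. The groups were far apart relative to their spread, at 27.9 ± 5.50 and 66.3 ± 4.55 CPM (SD, n = 3), a 2.37-fold difference in means. The log2 fold change was 1.25 (SE 0.17, edgeR unadjusted p = 0.000255, adjusted p = 0.218), which ranked 13 of 15372 genes by p. It lay between 1.10 and 1.41 with any single library left out and was 1.27 without Tshr f/f replicate 3. In the fit of all 12 libraries the adjusted p was 0.0127, where 65 of 17246 genes were called higher and 85 lower. Processed pseudogenes overlap the gene, and how reads shared with them were counted is not stated.

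The other 4 members, Socs2, Socs4, Socs5 and Socs7, had smaller differences. Socs2, which restrains growth hormone signalling, had 4.49, 6.20 and 5.76 CPM in the Tshr f/f cultures, compared with 5.30, 4.19 and 12.3 CPM in the Tshr MKO cultures. Its groups overlapped, and the log2 fold change of 0.41 (SE 0.43) became -0.21 without Tshr MKO replicate 3. Socs5, an inhibitor of IL-4 and epidermal growth factor signals, had 17.5 to 21 CPM in Tshr f/f and 17.5 to 28.5 CPM in Tshr MKO (log2 fold change 0.28, SE 0.20). Socs4, a close relative of Socs5, had 41.3 to 46.3 and 41.6 to 47.5 CPM (-0.02, SE 0.11), and Socs7, which binds adaptor proteins of growth factor receptors, had 26.9 to 35.1 and 25.4 to 28.2 CPM (-0.19, SE 0.14). These 4 had adjusted p-values between 0.468 and 0.939.

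**Figure D1:**
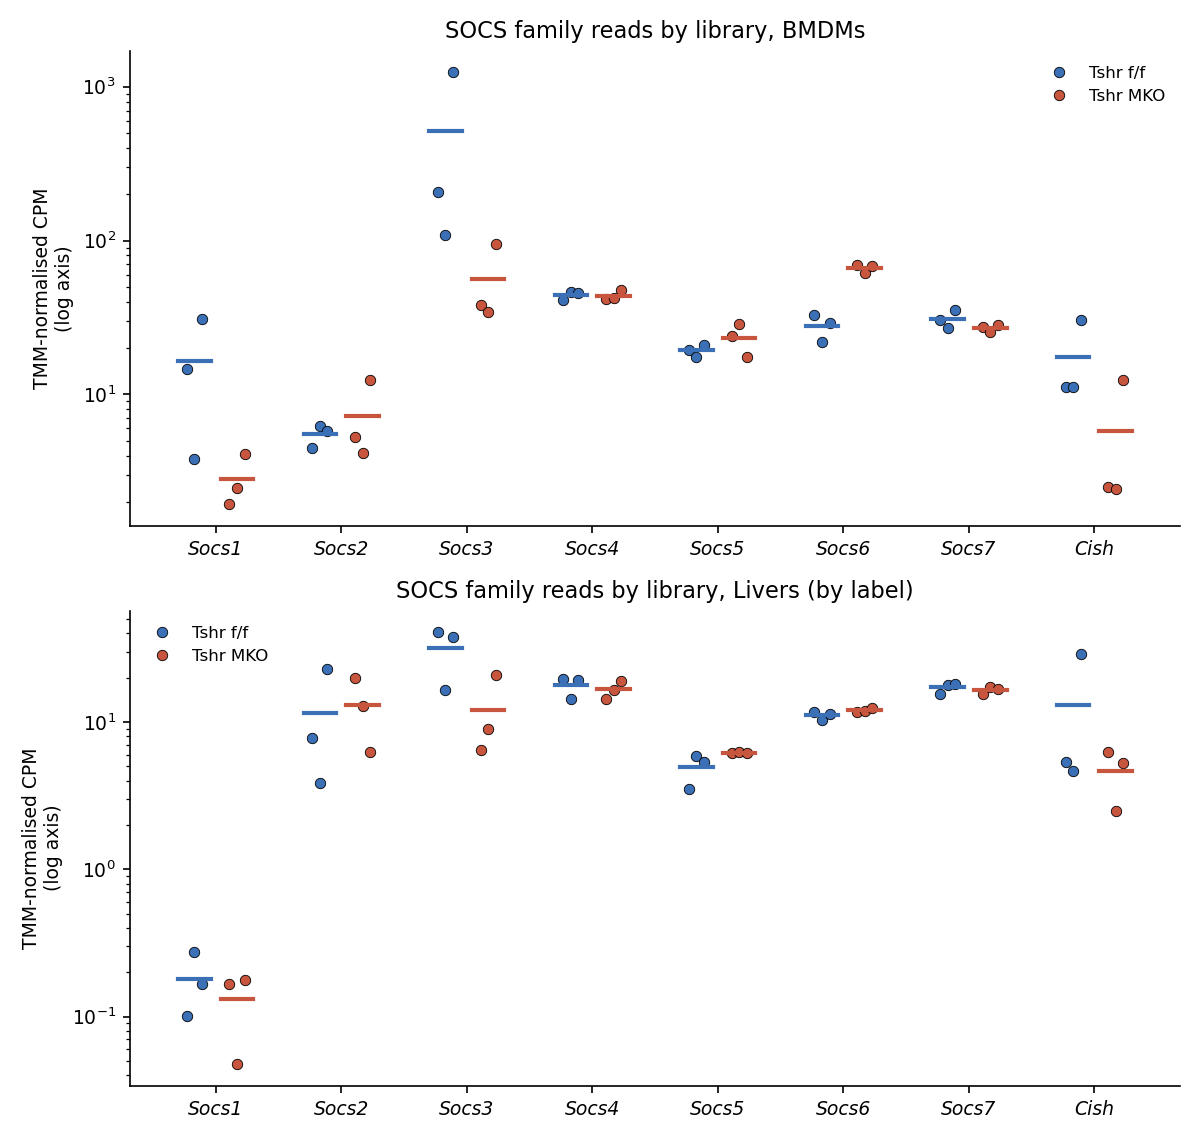
Reads of each SOCS member in TMM-normalised CPM (log axis) for the 12 libraries, with BMDMs above and livers below. Points are libraries and bars are group means (n = 3). In BMDMs, Socs6 lies at 22.0 to 32.9 CPM in Tshr f/f and 61.1 to 69.5 in Tshr MKO, and Socs3 at 109 to 1240 and 34.3 to 95.2.

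Ratios between members within a library need no scaling factor. Their pairs were chosen after the values were seen, so they describe the split without adding support for it. Socs3 exceeded Socs6 by 6.25-, 4.94- and 42.9-fold in counts in the Tshr f/f cultures, and the ratio was 0.551, 0.561 and 1.39 in Tshr MKO BMDMs. No Tshr MKO library reached the lowest Tshr f/f ratio. The ratio of Socs6 to Socs1 was 2.24, 5.83 and 0.943 in Tshr f/f and 36.0, 24.9 and 16.6 in Tshr MKO, again without overlap. By contrast, the ratio of Socs3 to Socs1 was 14.0, 28.8 and 40.4 in Tshr f/f and 19.8, 14.0 and 23.1 in Tshr MKO, and the ratio of Socs3 to Cish was 18.5, 9.70 and 40.6 and 15.3, 14.1 and 7.68, so that both pairs of groups overlapped. Per kb of exon, Socs3 made up 75.2, 66.7 and 92.8% of the summed level of the family in the Tshr f/f cultures, and 38.3, 36.0 and 57.7% in the Tshr MKO cultures. The share of Socs6 was 3.07, 3.44 and 0.552% against 17.7, 16.3 and 10.5%.

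**Figure D2:**
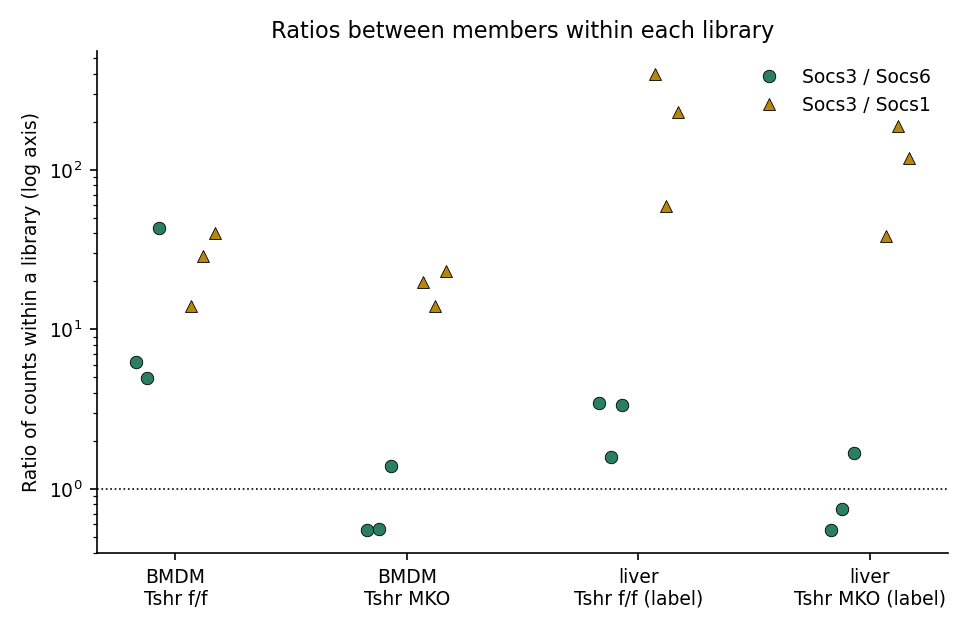
Ratio of Socs3 counts to Socs6 counts (circles) and to Socs1 counts (triangles) within each library (log axis, dotted line at 1), by group, 3 libraries each. The Socs3 to Socs6 ratio is 4.94 to 42.9 in Tshr f/f BMDMs, against 0.551 to 1.39 in those of Tshr MKO, while the Socs3 to Socs1 ratio overlaps between these groups.

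The pathway around the family was examined with lists of its parts, 116 genes in all, of which 95 were tested in BMDMs. By the rule of unadjusted p under 0.05 and 2-fold, 30 were lower in Tshr MKO, against 5.52% of all genes, and 1 was higher, against 3.3%. None passed an adjusted p under 0.05 in edgeR. The 30 became 16 when Tshr f/f replicate 3, Tshr MKO replicate 1 or Tshr MKO replicate 2 was left out. All genes lower by this rule also fell, from 848 to 475, 529 and 566, in that order. Of 19 ligands, 14 were tested, 14 were fitted lower, and 10 passed the rule (Il12a, Ifng, Lif, Il6, Csf3, Il12b, Il23a, Il27, Csf2 and Clcf1). The filter on low counts keeps a gene counted in a single group. Il12a, with 376, 317 and 2856 counts in Tshr f/f and 6, 0 and 0 in Tshr MKO, entered through Tshr f/f. The direction of such a gene was set as it entered, so the number fitted lower is no support for a direction. Without the filter 17 were tested and 13 were lower by the rule. Il6, the ligand best known for inducing Socs3, had 58.6, 25.2 and 1450 CPM in Tshr f/f and 0.391, 0.293 and 1.97 CPM in Tshr MKO (unadjusted p = 0.00443, adjusted p = 0.218). Its Tshr f/f replicate 3 was again by far the highest. Lif, a ligand of the same receptor family, had 14.5, 10.3 and 82.8 against 1.17, 1.25 and 1.95 CPM. Ifng, an inducer of Socs1, had 19.6, 2.47 and 35.4 against 0.418, 0.426 and 0.771 CPM, and Il12a had 9.43, 7.25 and 110 against 0.157, 0 and 0 CPM.

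Among the receptors, Il7r, the IL-7 receptor, was the single gene past the rule and was higher, at 97.7, 54.1 and 72.1 CPM in Tshr f/f and 170, 178 and 123 CPM in Tshr MKO (log2 fold change 1.07, adjusted p = 0.218). The IL-6 receptor chains did not pass it. Il6ra had 57.0, 69.6 and 15.1 against 101, 90.5 and 130 CPM (1.18, SE 0.53, unadjusted p = 0.0631), with no overlap, and Il6st had 125 to 156 against 152 to 185 CPM (0.24, SE 0.15). Among the kinases and STATs, Jak2 and Stat3 passed the rule. Jak2 had 303, 268 and 855 against 82.8, 86.5 and 98.2 CPM (log2 fold change -2.41, SE 0.48), and Stat3 had 276, 266 and 705 against 161, 151 and 232 CPM (-1.20, SE 0.44). Stat5b, the transducer of growth hormone, had 63 to 67.7 against 63.6 to 79.5 CPM (0.10, SE 0.13).

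Other brakes on the pathway included Ptpn2, a phosphatase of JAKs and STATs, at 50.1, 33.8 and 103 against 23.4, 23.9 and 29.3 CPM (-1.29, SE 0.41), and Usp18, an inhibitor of interferon receptor signalling, at 109, 15.2 and 220 against 32.9, 29.8 and 18.3 CPM (-2.09, SE 0.85, groups overlapping). These were the 2 of 11 that passed the rule, both lower, and 0 passed it without Tshr f/f replicate 3, Tshr MKO replicate 1 or Tshr MKO replicate 2. Of 9 components of the ubiquitin ligase that the SOCS box recruits, 0 passed it, and the same held for 5 tested genes of the insulin receptor and its substrates. Genes known to respond to STAT3 were lower in 9 of 13 tested, such as Lcn2, a siderophore-binding protein (22.5, 282 and 898 against 4.59, 2.69 and 2.91 CPM), the acute-phase gene Saa3 and the kinase gene Pim1. The 9 became 3 when Tshr f/f replicate 3, Tshr MKO replicate 1 or Tshr MKO replicate 2 was left out. For these lists too, the share of all genes lower was 5.52%, and all genes lower fell from 848 to 475, 529 and 566 in these fits.

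Markers of cell types also differed between the BMDM groups. The summed macrophage markers were 14800, 16300 and 15100 CPM in Tshr f/f and 22200, 20000 and 29300 CPM in Tshr MKO, with 0 of the 7 past the rule. The gap came from Lyz2, the gene whose promoter drives Cre (8870, 9840 and 8770 against 16100, 14500 and 22300 CPM), and the other 6 summed to 5900, 6440 and 6330 against 6040, 5490 and 7010 CPM. Of 9 neutrophil markers, 5 were tested, 2 were lower and 2 were higher by the rule, and the sum of all 9 was 7.38 to 48.9 against 5.36 to 12.2 CPM, most of it S100a8 in each Tshr f/f library (5.22, 28.9 and 45.6 CPM). Of 5 Kupffer cell markers, 4 were tested and 2 were lower, among them the scavenger receptor gene Marco (174, 219 and 421 against 94.7, 50.8 and 36.1 CPM), with Clec4f at 0 and a sum of 228 to 505 against 64.8 to 373 CPM. Of 5 dendritic cell markers, 4 were tested and 1 was lower, Ccr7 (6.02, 10.9 and 13.4 against 2.87, 2.37 and 3.83 CPM), with a list sum of 11.3 to 17.4 against 8.4 to 9.25 CPM, and 0 of 7 lymphocyte, 5 stromal and 2 endothelial markers tested passed the rule. Other genes of these lists went the other way. Of the Kupffer cell markers, Cd5l had 89.3, 5.31 and 62.3 against 263, 198 and 22.7 CPM, with overlap. Vsig4 had 9.21, 0.778 and 2.69 against 12.3, 9.68 and 4.74 CPM, also with overlap. Of the neutrophil markers, Retnlg had 0.0753, 0.0458 and 0.115 against 0.992, 0.56 and 1.71 CPM. Mpo had 0.0502, 0.32 and 0.115 against 0.965, 0.373 and 0.698 CPM. Marco, S100a8, Ccr7, Cd5l, Vsig4, Retnlg and Mpo are named after their values were seen. The part of these markers in the results was not tested.

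In livers, Socs3 was again lower in the group labelled Tshr MKO, while Socs6 differed little. Reads of Socs1 were few, with counts of 3, 10 and 5 in the Tshr f/f and of 6, 2 and 5 in the Tshr MKO livers, and Socs1 failed the filter on low counts and left 7 of the 8 members tested. None passed an adjusted p under 0.05 in edgeR over 15062 genes, where 0.0% of all genes did. At an unadjusted p under 0.05, 1 member was lower (Socs3), as were 780 of all genes, and 794 of all genes were higher. DESeq2 called 0 members, against 0.943% of all genes lower and 0.823% higher, as did limma voom, against 0.00664% lower and 0.0% higher. By the rule of unadjusted p and 2-fold, Socs3 alone was lower, against 0.856% of all genes, and 0 members were higher, against 0.69%. The groups did not overlap for 0 members lower, where 7.73% of all genes were so placed, and for 1 higher (Socs5), where 9.61% were. The median log2 fold change of the 7 tested members was -0.06, against -0.01 for all genes, with 4 fitted lower and 3 higher.

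Hepatic Socs3 had 40.7, 16.4 and 38.0 CPM in the liver libraries labelled Tshr f/f, compared with 6.45, 8.92 and 20.8 CPM in those labelled Tshr MKO. The groups overlapped, since Tshr f/f replicate 2 lay below Tshr MKO replicate 3. The means were 31.7 ± 13.3 and 12.1 ± 7.69 CPM (SD, n = 3), a 2.63-fold difference. The log2 fold change was -1.40 (SE 0.52, edgeR unadjusted p = 0.0331, adjusted p = 0.437). The unadjusted p was 0.0762 without Tshr f/f replicate 1, 0.0825 without Tshr f/f replicate 3, 0.0847 without Tshr MKO replicate 1 and 0.0928 without Tshr MKO replicate 2, so each of these libraries decided the call. The 9 neutrophil markers, Ly6g at no more than 3 counts among them, summed to 94.2, 30.0 and 8.99 CPM in Tshr f/f and 9.97, 16.8 and 18.6 CPM in Tshr MKO livers. Tshr f/f replicate 1 also had the lowest stromal sum (29.2 CPM, against 96.2 to 246 in the other livers). Its endothelial sum was lowest too (41.5 against 85.6 to 140 CPM), as was its TMM factor (0.891 against 0.976 to 1.05). Kupffer cell sums were 223, 589 and 436 against 389, 503 and 195 CPM. The part of these markers in this result was not tested.

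Hepatic Cish had 5.38, 4.63 and 28.8 CPM in the liver libraries labelled Tshr f/f, compared with 6.23, 2.50 and 5.27 CPM in those labelled Tshr MKO. A single library, Tshr f/f replicate 3, stood above the rest. The log2 fold change was -1.47 (SE 0.77, edgeR unadjusted p = 0.101, adjusted p = 0.555), and -0.11 (SE 0.40) without that library. Hepatic Socs6 had 11.7, 10.4 and 11.3 CPM against 11.7, 11.9 and 12.4 CPM (log2 fold change 0.11, SE 0.11), with overlapping groups. Socs5 had 3.48, 5.90 and 5.37 CPM against 6.12, 6.21 and 6.16 CPM (0.32, SE 0.23, unadjusted p = 0.195), the Tshr MKO values lying close together and above all of Tshr f/f. Socs4 lay between 14.2 and 19.7 CPM (-0.09, SE 0.16) and Socs7 between 15.6 and 18.2 CPM (-0.06, SE 0.10) over the 6 livers.

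**Figure D3:**
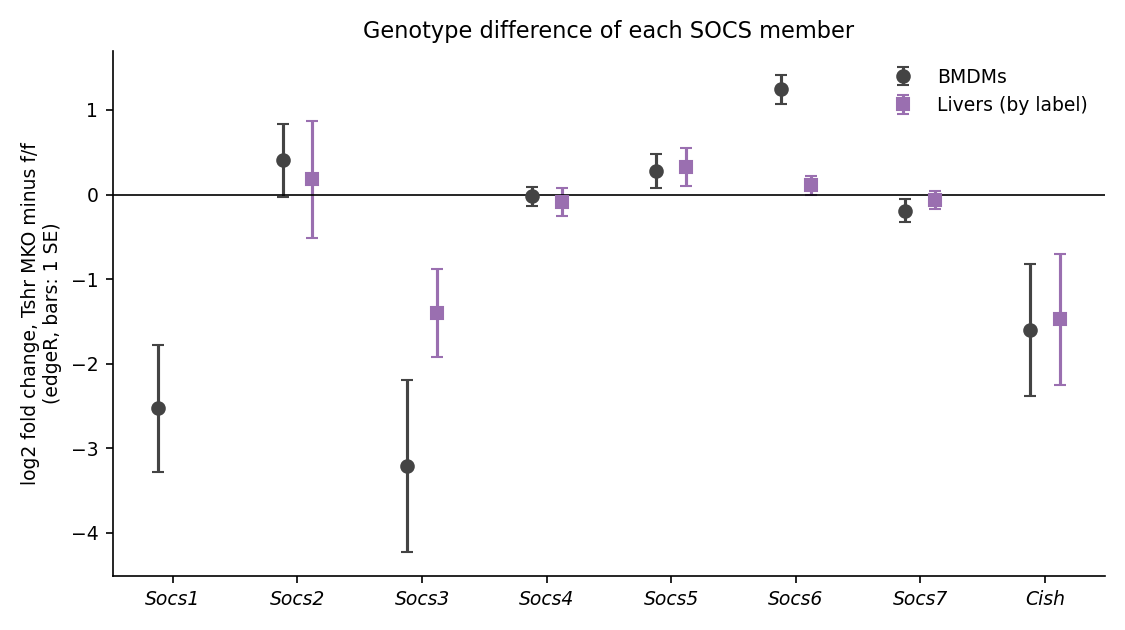
Log2 fold change of Tshr MKO minus Tshr f/f from edgeR for each SOCS member, in BMDMs (circles) and in livers by their labels (squares), with bars of 1 SE. Socs1 has no liver value because it failed the filter on low counts. Socs3 lies at -3.21 in BMDMs and -1.40 in livers, and Socs6 at 1.25 and 0.11.

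Socs2, a gene strongly induced by growth hormone in liver, varied more between livers than between their genotypes. It had 7.78, 3.83 and 22.9 CPM in the liver libraries labelled Tshr f/f, compared with 19.9, 12.7 and 6.26 CPM in those labelled Tshr MKO (log2 fold change 0.18, SE 0.69). The sample IDs in the labels begin with A for Tshr f/f replicates 1 and 2 and Tshr MKO replicate 3 and with B for the others, and the labels do not say what the letter means. Socs2 was at 3.83 to 7.78 CPM in the 3 A livers and 12.7 to 22.9 CPM in the 3 B livers, so that these did not overlap. Each other member overlapped between A and B. The share of all genes that split by the letter was not counted, so the split is a description of Socs2 only. With the letter in the fit the genotype difference of Socs2 was -0.20 (SE 0.34), and that of Socs3 was -1.38 (SE 0.52, unadjusted p = 0.0422, adjusted p = 0.502). Within A, Socs3 had 40.7 and 16.4 CPM in Tshr f/f and 20.8 CPM in Tshr MKO, and within B 38.0 CPM against 6.45 and 8.92 CPM.

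**Figure D4:**
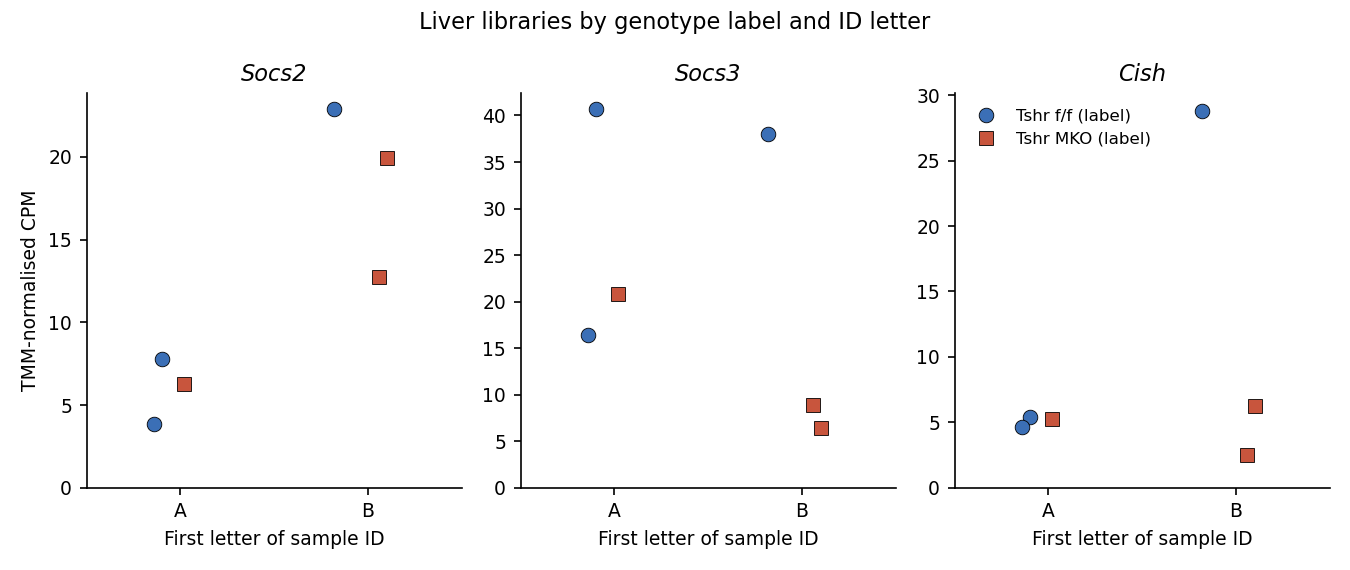
TMM-normalised CPM (linear axes from 0) of Socs2, Socs3 and Cish in the 6 liver libraries, by the first letter of the sample ID, with circles for livers labelled Tshr f/f and squares for those labelled Tshr MKO. Socs2 lies at 3.83 to 7.78 CPM under A and 12.7 to 22.9 under B, and Cish is highest in 1 library, at 28.8 CPM.

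Of the 116 pathway genes, 98 were tested in liver. By the unadjusted rule with 2-fold, 6 were lower, against 0.856% of all genes, and 2 were higher, against 0.69%. None passed an adjusted p in edgeR. The 6 were all genes known to respond to STAT3 in hepatocytes (Orm2, Saa2, Hpx, Saa1, Lcn2 and Hp), out of 19 tested and 19 fitted lower. These became 1 of 19 without Tshr f/f replicate 1, 2 without Tshr MKO replicate 1 and 0 without Tshr MKO replicate 2. All genes lower by the rule numbered 129, and 193, 108 and 164 in these fits, in that order. Saa2, an acute-phase gene with near-identical relatives that make its count uncertain, had 264679, 3691 and 57898 counts in Tshr f/f and 1280, 2867 and 9107 counts in Tshr MKO livers. Orm2, likewise of a family of close copies, had 1260, 25.6 and 165 against 27.5, 13.4 and 29.8 CPM. Hpx, the haem-binding protein haemopexin, had 14600, 4070 and 7210 against 3420, 3710 and 4110 CPM (-1.20, SE 0.44). In each, Tshr f/f replicate 1 was highest.

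The 2 higher genes were Cxcl10, an interferon-induced chemokine (1.25, 2.07 and 2.12 against 2.49, 3.28 and 5.94 CPM), and Hsd3b5, a male-biased steroid enzyme under growth hormone control (44.0, 101 and 41 against 81.6, 195 and 153 CPM, groups overlapping). Ghr, the growth hormone receptor, had 300, 370 and 253 against 474, 385 and 426 CPM, without overlap but under 2-fold (0.48, SE 0.16, unadjusted p = 0.0221, adjusted p = 0.409). Stat3 had 218, 179 and 144 against 140, 121 and 213 CPM, Jak2 8.79 to 16.7 against 11.7 to 13.6 CPM, and Stat5b 42.6 to 62.4 against 48.9 to 51.1 CPM, all with overlap. The IL-6 receptor chains were also under 2-fold: Il6ra had 113 to 172 against at most 118 CPM (-0.32, SE 0.16) and Il6st 149 to 197 against 139 to 154 CPM (-0.23, SE 0.12). Il6 itself was at no more than 0.283 CPM in each liver library.

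Whether a member differed between genotypes in another way in BMDMs than in livers was tested as an interaction over all 12 libraries. A single gene of 17246 (0.0058%) passed an adjusted p under 0.05 in edgeR, Gprc5c, which is no member and is named after its value was seen (adjusted p = 0.00963). The genotype difference of Socs6 was larger in BMDMs than in livers by 1.14 on the log2 scale (SE 0.20, unadjusted p = 0.000195, adjusted p = 0.121), which ranked 23 of 17246, and Socs6 was the 1 member with an unadjusted p under 0.05, where 7.12% of all genes had such a p and a positive difference. DESeq2 called it, at an adjusted p of 8.67e-05, where 2.6% of all genes were called with a positive and 2.05% with a negative difference. The difference was -1.81 (SE 1.18, unadjusted p = 0.155) for Socs3, -0.08 without Tshr f/f BMDM replicate 3, and -1.99 (SE 1.17, unadjusted p = 0.118) for Socs1, whose liver counts were near the detection limit. For the other members it lay between -0.13 and 0.23. These values take the liver labels as they stand.

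Levels of different members are compared per kb of the union of their exons, on a scale set over all 12 libraries. In Tshr f/f BMDMs Socs3 led at 132 ± 160 CPM per kb (SD, n = 3; 27.3 to 316), above the range of every other member. Socs4 (4.73 ± 0.25), Socs1 (4.15 ± 3.44) and Socs7 (3.12 ± 0.44) followed with overlapping neighbours, then Socs5 (2.21 ± 0.22), Cish (2.02 ± 1.29) and Socs6 (1.81 ± 0.37), which overlapped in turn, and Socs2 was lowest (0.42 ± 0.07). In Tshr MKO BMDMs Socs3 still led at 14.3 ± 8.88, followed by Socs4 (4.70 ± 0.39) and Socs6 (4.32 ± 0.32), which overlapped, by Socs7 (2.75 ± 0.17) and Socs5 (2.69 ± 0.62), which overlapped, and by Socs1 (0.72 ± 0.30), Cish (0.67 ± 0.67) and Socs2 (0.56 ± 0.35), whose ranges all touched their neighbours.

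In livers labelled Tshr f/f, Socs3 led at 14.8 ± 6.13 CPM per kb, and Socs4 (3.48 ± 0.57), Socs7 (3.21 ± 0.30), Cish (2.74 ± 2.92), Socs2 (1.63 ± 1.44), Socs6 (1.33 ± 0.07) and Socs5 (1.04 ± 0.28) formed a chain in which each overlapped the next. Socs1 was lowest, at 0.08 ± 0.04. In livers labelled Tshr MKO, Socs3 (5.65 ± 3.47) overlapped Socs4 (3.30 ± 0.40), which overlapped Socs7 (3.10 ± 0.18). Socs2 (1.87 ± 1.00) and Socs6 (1.44 ± 0.02) overlapped, as did Socs5 (1.31 ± 0.03) and Cish (0.99 ± 0.41), and Socs1 was again lowest (0.06 ± 0.03). The order rests on the length used. With the longest protein-coding transcript in place of the union of exons, an alternative added after the data were seen, Socs2 in livers labelled Tshr MKO was at 8.01 ± 4.29 and led Socs3 at 6.40 ± 3.93, with overlap, and Socs6 in Tshr MKO BMDMs was at 8.12 ± 0.60, above Socs4.

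**Figure D5:**
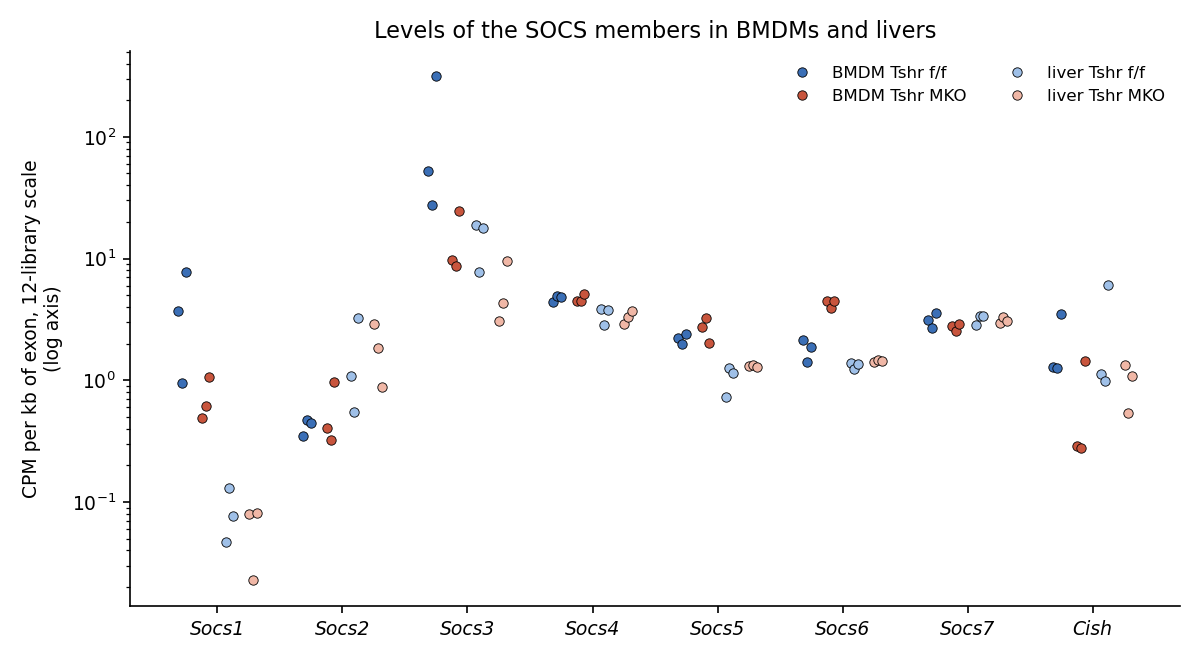
CPM per kb of exon (log axis, 12-library TMM scale) of each SOCS member in the 4 groups, with 1 point per library. Socs3 reaches 316 in a Tshr f/f BMDM library, and Socs1 lies at 0.94 to 7.78 in Tshr f/f BMDMs and below 0.13 in all 6 livers.

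Between Tshr f/f BMDMs and livers labelled Tshr f/f, 5 members were higher in BMDMs, where 32.7% of all genes were, and 1 was lower, where 36.6% were (edgeR, adjusted p under 0.05). This contrast sets treated cultured cells beside insulin-treated tissue, so source and treatment cannot be told apart. Socs1 differed most, by 5.57 on the log2 scale (SE 0.82, adjusted p = 0.000133), at 165 to 800 counts in BMDMs and 3 to 10 in livers. Socs3 was higher by 3.16 (SE 0.90, adjusted p = 0.00902), which lost its call without Tshr f/f BMDM replicate 3 (1.45, adjusted p = 0.0568). Socs5 was higher by 1.09 (adjusted p = 0.00126), Socs6 by 0.45 (adjusted p = 0.0176) and Socs4 by 0.44 (adjusted p = 0.0178). The calls of Socs4 and Socs6 were lost without Tshr f/f liver replicate 2 (adjusted p = 0.0636 and 0.0561), and that of Socs6 also without Tshr f/f BMDM replicate 1 (0.0790).

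Socs2, the growth hormone target, was the member lower in BMDMs, by -1.95 (SE 0.66, adjusted p = 0.0223), and its call was lost without Tshr f/f liver replicate 3 (-0.95, adjusted p = 0.167), Tshr f/f BMDM replicate 1 (-1.83, adjusted p = 0.0691) or Tshr f/f BMDM replicate 3 (-1.97, adjusted p = 0.0529). Socs7 (-0.04, SE 0.13) and Cish (-0.44, SE 0.84) did not pass the test. On library totals with no scaling factors the median of all genes moved from -0.03 to 0.79, the split of all called genes went from 6310 lower and 5634 higher to 3895 and 8573, and 6 members were higher and 0 lower, with Socs7 at 0.74 and Socs2 no longer called (-1.15). The value of Socs7 lay below that shifted median.

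Across the 6 BMDM libraries the log2 level of Socs3 followed that of Socs1 (Pearson r = 0.959), Socs7 (0.950) and Cish (0.917), and ran against that of Socs6 (-0.639). These are descriptions over libraries that share the 2 genotypes and the position of Tshr f/f replicate 3, with no test. Of 12536 genes with at least 50 counts on average, those most like Socs3 were Apaf1, Pik3c2a, Ccng2, Tlr6 and Ythdc1 (r = 0.998 each), those most like Socs1 were Eif4enif1, Igsf6, Rpl19-ps11, Rfx5 and Relb (0.996 to 0.998), and those most like Cish were Cisd2, Rbks, Rnf6, Nrip1 and Commd1b (0.992 to 0.997). Rpl19-ps11 is a pseudogene, and its reads may come from its parent gene. In the 6 livers, Socs3 was most like Pak4, Faap20, Tbk1, Zfp7 and Rapgef4 (0.989 to 0.996) among 11983 genes and Cish most like Heca, Ppm1f, Cpne2, Psph and Itgb1bp1 (0.976 to 0.988). Hepatic Socs3 had an r of 0.548 with Cish and -0.165 with Socs2.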

How the data were processed

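RNA was sequenced from 12 libraries of strand-specific preparations (Illumina NovaSeq). The values are counts of reads per gene, which the authors deposited as a single raw table; the submitters' processing notes name FastQC 0.11.2, STAR, StringTie and the build mm10, and no normalization or strand setting of the counting is given in the sources used here. No column went unused. The members and pathway lists were chosen with earlier results of these data known.

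Counts were tested with edgeR 4.0.16 (R 4.3.3; filterByExpr, TMM factors, robust quasi-likelihood fit, Benjamini-Hochberg adjustment over all genes tested), with genotypes compared within BMDMs and within livers, and the interaction and the contrast of sources fitted over all 12 libraries. SE is the size of the log2 fold change over the square root of F. The study's own test, MARS in DEGseq, as described compares the counts of a pair of samples and was not run. Alternatives were RLE factors, no factors, no filter, a filter at an average of 50 counts, DESeq2 1.42.0, limma 3.58.1 voom with sample quality weights, all libraries in a fit, a replicate block, the sample ID letter and each library left out. The script was tested on simulated counts. Named genes were all members and, per pathway list, up to 3 of lowest p past the unadjusted rule, with Jak2, Stat3, Stat5b, Il6, Il6ra, Il6st and Ghr; other list genes were named after their values were seen. A pathway gene and a list of target genes are not reported here on their own and stay in the counts over all pathway genes. Likeness was Pearson's r of log2(CPM + 0.5). Lengths came from GENCODE M21 and promoters from RefSeq.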

Additional observations from a re-analysis of the deposited data

How the results depend on the processing

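The direction of Socs1, Socs3, Socs6 and Cish within BMDMs and of Socs3 and Cish within livers was the same under each alternative run, and 0 members were called at an adjusted p within livers under any of them. The cause of the changes below was not tested. In BMDMs the members called lower at an adjusted p numbered 2 with DESeq2 and 3 with limma voom, against 0, and 1 was called higher with DESeq2, with limma voom and with all 12 libraries in a fit. The shares of all genes for DESeq2 and limma voom are given above, and the 12-library fit called 65 of 17246 genes higher and 85 lower. By the unadjusted rule with 2-fold, leaving out single libraries gave 1 to 3 members lower in BMDMs, where 475 to 1190 of all genes were lower. In livers it gave 0 to 2 members lower, where 108 to 196 of all genes were. The liver count was 0 without the filter or with all 12 libraries in a fit and 2 with DESeq2. In these 3 liver fits 218, 188 and 152 of all genes were lower, in that order. The pathway genes lower in BMDMs ranged from 16 to 34 and those higher from 1 to 3 with single libraries left out, and 2 were higher with DESeq2 and 5 with all 12 libraries. In livers single libraries left out gave 1 to 9 pathway genes lower and 0 to 3 higher. For the interaction, DESeq2 called 1 member (Socs6), and leaving out single libraries gave 0 to 1 (Socs6 at adjusted p = 0.0398 without Tshr f/f BMDM replicate 1 and 0.0211 without Tshr f/f BMDM replicate 2). Of all genes, the first of these 2 fits called 38 higher and 24 lower. The second called 77 higher and 264 lower, against a single gene in the main fit. Between sources, 0 members were called lower with no factors or a replicate block, where 3895 and 6020 of all genes were. Single libraries left out gave 0 to 1 lower and 3 to 5 higher, where 5989 to 6371 of all genes were lower and 5235 to 5687 higher.

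Signs turned for members with small differences. In BMDMs Socs4 was 0.15 with no factors, 0.0064 with a mean of at least 50 counts, 0.0001 with limma voom and -0.0812 to 0.0173 with single libraries left out, Socs7 was 0.0069 with no factors, and Socs2 was -0.21 to 0.68 with single libraries left out. In livers Socs2 was -0.20 with the ID letter and -0.27 to 1.16 with single libraries left out. The interaction with no factors was 0.15 for Socs5, 0.0486 for Socs7 and 0.14 for Cish, and with single libraries left out it ranged from -0.77 to 0.68 for Socs2, -0.0144 to 0.20 for Socs4, -0.21 to 0.15 for Socs5 and -1.49 to 0.55 for Cish. Between sources Socs7 was 0.74 with no factors, 0.04 without the filter and -0.12 to 0.0579 with single libraries left out, and Cish was 0.22 with no factors and -1.09 to 0.94 with single libraries left out.

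Same-numbered replicates did not deviate together (r = 0.136, 0.027 and 0.113 in BMDMs, -0.066, 0.252 and -0.029 in livers), so the numbers are not taken to pair the libraries. With a replicate block, 0 members were called at an adjusted p within BMDMs or livers, where 1 and 0 of all genes were called lower. By the unadjusted rule with 2-fold, 3 members were lower in BMDMs, where 731 of 15372 genes were. In livers 1 pathway gene was lower in place of 6, where 106 of all genes were in place of 129. The interaction of Socs2 was -0.25 with this block. In the order of levels, the coding length left 3 of 8 members in place in Tshr f/f BMDMs, 2 in Tshr MKO BMDMs, 4 in Tshr f/f livers and 2 in Tshr MKO livers, and medians left 4 in Tshr f/f livers. Depth limited Socs1 in livers, at 2 to 10 counts.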

Other observations

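Within livers the make-up of the family also varied. Per kb of exon, Socs2 made up 3.66, 3.03 and 8.82% of the summed level of the 8 members in livers labelled Tshr f/f, compared with 18.1, 11.5 and 4.14% in livers labelled Tshr MKO. The share of Socs3 was 63, 42.8 and 48.3% against 19.3, 26.6 and 45.5%, and that of Cish reached 16.5% in Tshr f/f replicate 3, where it lay between 3.35 and 8.39% in the other 5 livers. Reads of Socs3 exceeded those of Socs2 by 5.23-, 4.29- and 1.66-fold in the Tshr f/f livers, and the ratio was 0.324, 0.701 and 3.33 in the Tshr MKO livers, so that the groups overlapped.

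The genes whose log2 level was most like that of Socs6 over the 6 BMDM libraries were Sat1, Nckap1l, Arfgef2, 4732416N19Rik and Trpv4 (Pearson r = 0.990 to 0.995), and those most like Socs2 over the 6 livers were Zfp719, Tmem127, Prkd3, Tasor and Med9. These lists were added after the values had been seen and are descriptions with no test.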
